A study of Mus musculus with 15 samples.

Results

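The Schlafen genes of the mouse form a small family of related genes. Its 7 members Slfn1, Slfn2, Slfn3, Slfn4, Slfn5, Slfn8 and Slfn9 were followed here by gene symbol, out of 37991 genes in a table of liver read counts. All 7 had a row in the table, and 6 of them, all but Slfn3, had enough reads to enter the fit, in which 14258 genes were tested. The family was picked because Slfn8 was already known to be among the genes with the largest loss between old KO and old WT liver, so every difference of a member between those groups is a description, with no p-value given and no support drawn from a call.

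The livers came from female mice on the inbred C57BL/6 strain, bred from S6K1 heterozygotes and fed chow. The 5 young WT animals were 90 days old, and the 5 old WT and 5 old KO animals were 600 days old. The KO animals lacked S6K1, the ribosomal protein S6 kinase encoded by Rps6kb1, in all tissues, and the table held no young KO group. Each library was made from the polyadenylated RNA of whole liver of 1 animal. The aim of the study was to compare the livers of aged mice with and without the kinase, with young WT liver as the reference for age. Rps6kb1 stood at a mean of 38.3 CPM (each count over a scaled total of the library) in young WT, 38.4 CPM in old WT and 17.0 CPM in old KO, and all 5 old KO libraries lay below all WT libraries. Total counts ran from 21801754 to 38065359 per library. The genes of the hepatocyte list (such as Alb and Apoa1) summed to between 79550 and 140500 CPM in every library.

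Schlafen genes take their name from the German word for sleep, after the quiescence of thymocytes in which the first of them were found. Many are induced by interferons, and they are best known in lymphocytes and myeloid cells. The proteins are sorted by size: the short Slfn1 and Slfn2, the intermediate Slfn3 and Slfn4, and the long Slfn5, Slfn8 and Slfn9, which carry a helicase-like part at their C-terminal end. In these gene models the coding length was 1014 bases for Slfn1 and 1137 for Slfn2, 1554 for Slfn3 and 1809 for Slfn4, and 2655 for Slfn5 against 2733 for both Slfn8 and Slfn9. The coding sequences of Slfn8 and Slfn9 were identical at 92.7% of 2733 aligned bases, and those of Slfn3 and Slfn4 at 95.3% of 1524. Every other pair of members was identical at between 57.1% and 75.2% of aligned bases.

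The 7 genes lie within 264 kb of chromosome 11 (NCBIM37, the assembly known as mm9, 82764851 to 83028656). From one end to the other the order is Slfn5 (from 82764851), Slfn9 (from 82793131), Slfn8 (from 82815660), Slfn2 (from 82878614), Slfn1 (from 82930351), Slfn4 (from 82988688) and Slfn3 (to 83028656). Slfn8 and Slfn9 are transcribed from the minus strand and the other members from the plus strand. Rps6kb1 lies on the same chromosome (86312373 to 86358307), 3.28 Mb beyond the end of the cluster. A segment of chromosome next to the deleted allele is inherited with it, and no file analysed here types that segment, so the loss of the kinase and a linked difference in sequence cannot be told apart by genotype for genes of this cluster.

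Promoters are shown for the 3 long members and for Slfn2, because the long members were the ones with an interferon-stimulated response element core in this window. The letters searched, on both strands, were GAAA, any 2 bases and GAAA again. Each sequence gives the 200 bases before the annotated start of transcription, read 5′ to 3′ in the direction of the gene, taken from RefSeq (GRCm38.p6) and placed in NCBIM37 by an exact and unique match. The RefSeq start of Slfn5 lies inside the gene as placed above, whose first base is that of another annotated transcript. Capitals mark the match, which on the opposite strand reads as its reverse complement.

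Slfn5 (chr11:82765404-82765603, plus strand): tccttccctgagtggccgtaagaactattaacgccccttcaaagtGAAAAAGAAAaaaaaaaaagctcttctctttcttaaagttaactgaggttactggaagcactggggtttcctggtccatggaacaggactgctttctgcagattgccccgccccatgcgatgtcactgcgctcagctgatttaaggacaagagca

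Slfn8 (chr11:82834313-82834512, minus strand): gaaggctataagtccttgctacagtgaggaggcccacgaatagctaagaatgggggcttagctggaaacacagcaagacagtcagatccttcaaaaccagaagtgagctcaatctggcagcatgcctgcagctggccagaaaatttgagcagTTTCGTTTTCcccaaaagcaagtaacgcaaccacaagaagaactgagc

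Slfn9 (chr11:82805333-82805532, minus strand): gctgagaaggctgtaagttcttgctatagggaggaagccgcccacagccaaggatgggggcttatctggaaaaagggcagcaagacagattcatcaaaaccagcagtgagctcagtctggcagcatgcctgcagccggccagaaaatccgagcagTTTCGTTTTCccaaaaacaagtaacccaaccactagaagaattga

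Slfn2 (chr11:82878414-82878613, plus strand): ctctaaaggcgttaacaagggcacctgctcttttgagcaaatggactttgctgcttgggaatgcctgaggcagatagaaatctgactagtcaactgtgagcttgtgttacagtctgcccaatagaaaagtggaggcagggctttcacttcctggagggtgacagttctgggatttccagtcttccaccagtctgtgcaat

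The match began 155 bases before the start in Slfn5, 48 bases before it in Slfn8 and 45 bases before it in Slfn9. The stretches of Slfn8 and Slfn9 shared 166 of 195 aligned bases (85.1%), and both held the same letters at the match. The promoter table had 8 windows for the 7 members, of 250 bases before to 50 bases after each start, since Slfn8 has a further annotated start, whose window holds the same match. No match was found in the windows of Slfn1, Slfn2, Slfn3 and Slfn4. Of all 32851 promoter windows of this length, 3.44% held the core. The letters TTCNNNGAA of the gamma-activated site, which 8.3% of all windows held, were in none of the 8 windows.

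The levels of the members per kb of exon differed widely (CPM per kb, mean ± SD, n = 5). In young WT liver Slfn5 (2.18 ± 0.59) and Slfn2 (1.82 ± 0.93) came first, and their libraries overlapped. Slfn9 (0.738 ± 0.136) and Slfn8 (0.595 ± 0.223) followed, again with overlapping libraries, and Slfn1 (0.244 ± 0.158), Slfn4 (0.0813 ± 0.0247) and Slfn3 (0.0506 ± 0.0426) were the lowest. Slfn8 changed place most between groups. In old WT its level per kb of 1.02 ± 0.16 came just above that of Slfn9 at 0.852 ± 0.074 with overlapping libraries, whereas in old KO its 0.176 ± 0.055 came just below Slfn1 at 0.218 ± 0.084, where libraries overlapped as well. The other 6 members kept their order among themselves except that Slfn2 (2.71 ± 0.16 in old WT) stood above Slfn5 (1.91 ± 0.71) in both old groups, where these pairs of members also overlapped.

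The relatives of the family were close to absent. Slfn10-ps, next to Slfn8, had 0 to 6 counts per library, Slfn14 had 0 to 4, the more distant Slfnl1 had 0 or 1 and Slfn5os, the antisense transcript across Slfn5, had 0 to 2. None of these 4 had enough reads to be tested. The members share sequence, and how reads that fit more than 1 place were counted is not given in the sources used here. Windows of 50 bases (the read length) in the annotated transcripts were sought in the coding transcripts of other genes and at a second place on chromosome 11. Of those of Slfn8, 14.6% were found elsewhere in this sense, with 9.3% found in Slfn9 and 10.1% in Slfn10-ps. The shares of windows found elsewhere were 14.7% for Slfn9, 23.1% for Slfn3, 11.2% for Slfn4, 4.33% for Slfn2, 2.13% for Slfn5 and 0.606% for Slfn1, so that the values of Slfn3 and Slfn4, and of Slfn8 and Slfn9, are uncertain by the reads they share.

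Slfn8, a long member expressed in cells of the immune system, showed the widest separation of the groups. It measured 2.001, 1.40, 2.45, 2.44 and 3.88 CPM in the 5 young WT libraries, 4.62, 3.98, 4.95, 3.30 and 4.04 CPM in old WT, and 0.637, 0.763, 0.557, 1.09 and 0.557 CPM in old KO. Old KO stood below every WT library of either age, and 4 of 5 old WT libraries stood above all young WT libraries. These levels rested on 46 to 90 reads per library in young WT, on 90 to 166 reads in old WT and on 12 to 26 reads in old KO. The mean was 5.80-fold lower in old KO than in old WT, a log2 fold change of -2.53 ± 0.26 (SE), which is the value the family was chosen by. Against young WT, the mean of old KO was 3.38-fold lower.

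Slfn9, the near-identical neighbour of Slfn8, measured 2.76, 2.90, 4.21, 3.56 and 4.01 CPM in young WT, 3.72, 4.59, 3.76, 4.03 and 4.04 CPM in old WT, and 2.77, 2.87, 1.89, 1.76 and 2.18 CPM in old KO. All old KO libraries were below all old WT libraries, but 2 of them lay within the range of young WT. The log2 fold change between the old groups was -0.81 ± 0.17 (SE), smaller in size than that of Slfn8.

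Slfn5, a long member known as a nuclear protein, was the most abundant of the family in CPM. Its libraries held 6.66, 6.96, 11.6, 12.0 and 10.99 CPM in young WT, 11.6, 11.9, 6.68, 7.18 and 4.93 CPM in old WT, and 7.49, 6.10, 4.28, 4.91 and 3.71 CPM in old KO. Both WT groups were spread over a wide range, and the old groups overlapped, with a log2 fold change of -0.67 ± 0.26 (SE) in old KO against old WT.

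**Figure D1:**
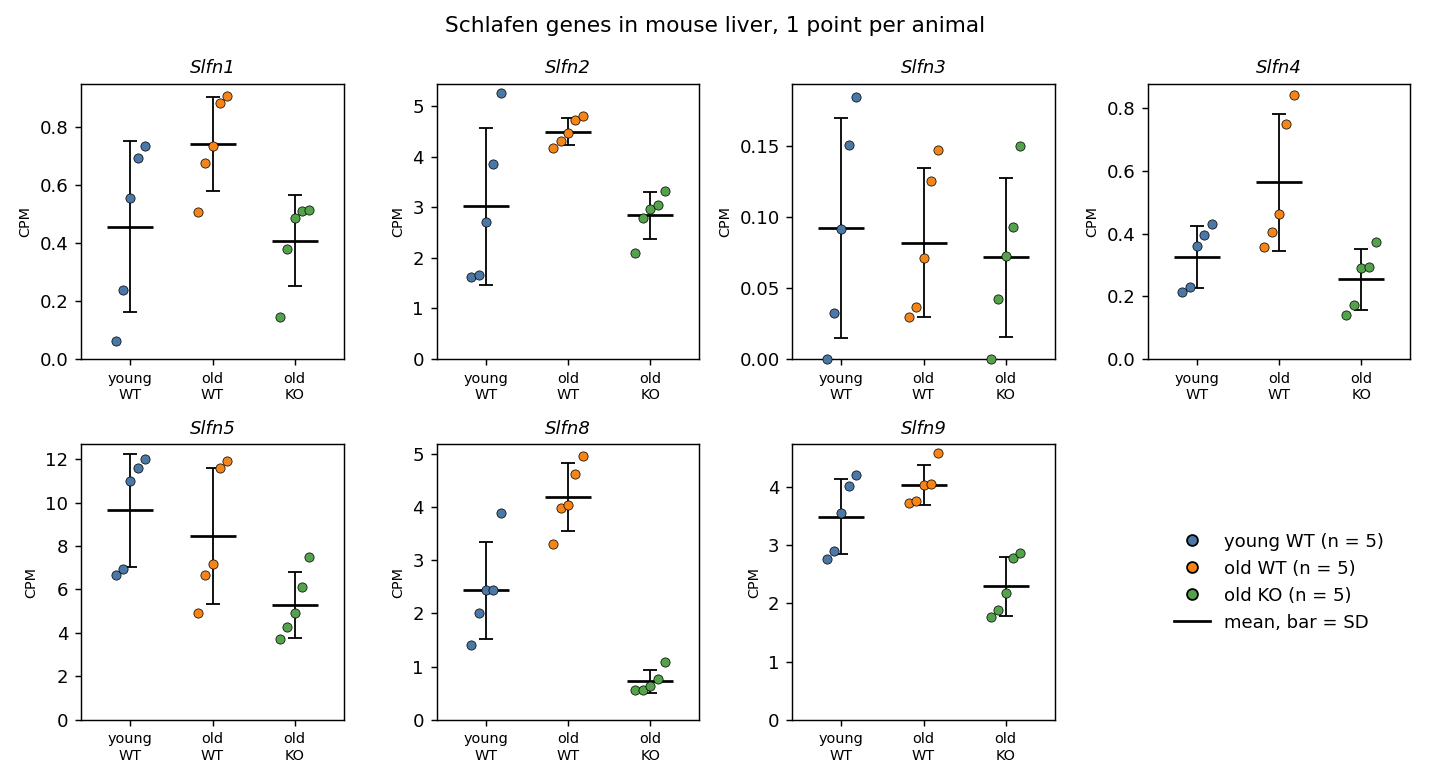
Level of each Schlafen gene in every liver library. The vertical axes give CPM from 0, with a scale of their own for each gene; points are single animals, horizontal lines the mean and bars the SD of 5 animals. Slfn8 in old KO runs from 0.557 to 1.09 CPM and lies below all other libraries, Slfn2 and Slfn9 separate the old groups, and the groups of Slfn1, Slfn3, Slfn4 and Slfn5 overlap.

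Among the short members, Slfn2 is needed for the quiescence of T cells and protects transfer RNAs from cleavage. It measured 1.66, 1.62, 2.71, 3.86 and 5.26 CPM in young WT, 4.31, 4.73, 4.18, 4.47 and 4.82 CPM in old WT, and 3.33, 3.05, 2.78, 2.98 and 2.09 CPM in old KO. The old WT libraries lay close together and above every old KO library, while the young WT libraries spanned both. The log2 fold change between old KO and old WT was -0.66 ± 0.26 (SE).

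Slfn1, which restrains the growth of thymocytes when overproduced, measured 0.237, 0.0611, 0.554, 0.693 and 0.733 CPM in young WT, 0.906, 0.676, 0.507, 0.733 and 0.882 CPM in old WT, and 0.487, 0.145, 0.514, 0.377 and 0.511 CPM in old KO. The old groups overlapped by a narrow margin, and the log2 fold change between the old groups was -0.87 ± 0.45 (SE).

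Of the intermediate members, Slfn4 is known from myeloid cells, where it falls as macrophages mature. It measured 0.395, 0.214, 0.228, 0.362 and 0.431 CPM in young WT, 0.750, 0.462, 0.358, 0.843 and 0.404 CPM in old WT, and 0.374, 0.291, 0.171, 0.293 and 0.139 CPM in old KO. In 4 of 5 old KO libraries it was lower than in any old WT library, and the log2 fold change was -1.11 ± 0.34 (SE). Slfn3, a T cell and gut member, was at the limit of detection, with 0.184, 0.0916, 0.0326, 0.151 and 0 CPM in young WT, 0.125, 0.0711, 0.0298, 0.147 and 0.0368 CPM in old WT, and 0.1498, 0.0726, 0, 0.0419 and 0.0928 CPM in old KO. No difference of Slfn3 could be detected at this depth, which gave 0 to 7 reads per library.

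As a family, the members summed to between 13.3 and 25.3 CPM in young WT, 19.2 and 26.4 CPM in old WT and 9.28 and 15.2 CPM in old KO, with no overlap of the old groups. All 6 tested members had an estimate below 0 in old KO against old WT, which 49.8% of all tested genes had, and their median log2 fold change was -0.84 against 0.00 for all genes. Slfn8 and Slfn9 were among the genes called at an adjusted p under 0.05 in edgeR's quasi-likelihood test, a count given only beside its background of 0.533% of all genes, or 0.421% as lower. In Slfn2, Slfn8 and Slfn9 the 2 old groups did not overlap, which held for 3.2% of all genes, and for 2.08% with old KO lower. Because this contrast chose the family, nothing further is read from these counts. The count of 2 fell to 1, with Slfn8 alone, in 10 of the 15 fits that each left out a single library, namely any of the old WT libraries, old KO 2, 4, 5 or 6, or young WT 4.

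**Figure D2:**
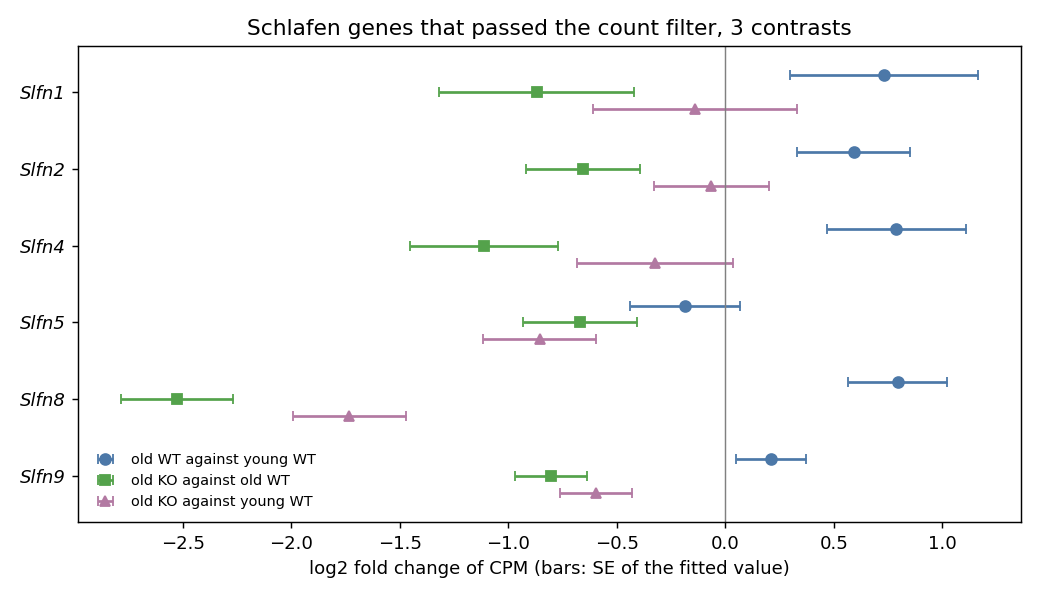
Log2 fold changes of the 6 tested Schlafen genes in the 3 contrasts. The horizontal axis gives the fitted log2 fold change and the bars its SE, from 15 libraries. Slfn8 stands apart at -2.53 in old KO against old WT, all members are below 0 in that contrast, and 5 of 6 are above 0 in old WT against young WT.

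Slfn8 and Slfn9 were next compared within each library, since a ratio of neighbouring genes does not depend on library scaling. Slfn8 made up 42.0%, 32.6%, 36.8%, 40.7% and 49.2% of the reads of the pair in young WT, 55.4%, 46.5%, 56.9%, 45.0% and 50% in old WT, and 18.7%, 21.0%, 22.8%, 38.2% and 20.3% in old KO. The share was lower in every old KO library than in every old WT library, and old KO 5, the highest of its group, also exceeded 2 young WT libraries. Exact 95% binomial intervals, which cover counting error only, ran from 26.7% to 50.8% for old KO 5 and from 37.98% to 52.2% for old WT 7, the lowest of that group, so these 2 libraries are not separated by counting error alone. In the whole family, Slfn8 took from 10.6% to 15.3% of the summed CPM in young WT, from 15.1% to 24.2% in old WT and from 4.18% to 9.52% in old KO. The share of Slfn5 ran from 43.4% to 53.2% in young WT, from 25.7% to 45.1% in old WT and from 40% to 49.1% in old KO. With the reads of Slfn8, Slfn9 and Slfn10-ps summed, the log2 fold change between the old groups was -1.42, and it was 0.48 for old WT against young WT.

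Schlafen genes are expressed in immune cells, so the markers of those cells were summed in the same libraries. In whole liver, fewer cells of a type and less RNA per cell cannot be told apart. The 7 genes common to leukocytes, such as Ptprc (CD45), summed to 29.3 to 64.9 CPM in young WT, 54.9 to 81.2 CPM in old WT and 27.6 to 53.5 CPM in old KO. The 13 markers of Kupffer cells and other macrophages, such as Clec4f and Cd5l, summed to 237 to 499 CPM in young WT, 284 to 681 CPM in old WT and 163 to 244 CPM in old KO. None of these 20 markers was at 0 in any library, and neither sum overlapped between the old groups. Between genotypes, 8 of 13 macrophage markers fell in edgeR's test (median log2 fold change -1.18), against 10 with DESeq2 and 2 with limma voom. The count was 0 without old WT 1 or 4 or old KO 2, 4 or 6, 1 without old KO 5, 2 without old WT 10, 4 without young WT 4 and 5 without old WT 7. Of the leukocyte genes 0 of 7 passed in edgeR (median -0.82) and 0 with voom, 3 passed with DESeq2, and all 7 had an unadjusted edgeR p under 0.05.

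Taken as a percentage of the summed CPM of the 7 leukocyte genes, Slfn8 ran from 4.02% to 6.08% in young WT, from 4.06% to 9.02% in old WT and from 1.19% to 2.14% in old KO. All 5 old KO libraries lay below all old WT libraries in this ratio. Slfn9 ran from 4.96% to 6.85% in old WT and from 3.45% to 7.91% in old KO, and Slfn2 from 5.51% to 7.61% and from 5.83% to 8.70%, so that both overlapped. For Slfn5 the ratio ran from 7.001% to 16.04% in old WT and from 9.61% to 15.7% in old KO, and for Slfn1, Slfn3 and Slfn4 the old groups overlapped likewise. Against the 13 macrophage markers, Slfn8 ran from 0.490% to 0.798% in young WT, from 0.585% to 1.75% in old WT and from 0.261% to 0.491% in old KO, again with no overlap of the old groups, and the other 6 members overlapped. The part of the immune cell markers in the lower levels of those members was not tested. The share of all genes that separate the old groups in these ratios was not computed. Slfn8 is the member whose loss in this contrast set the choice of the family, so nothing is read from its separation.

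**Figure D3:**
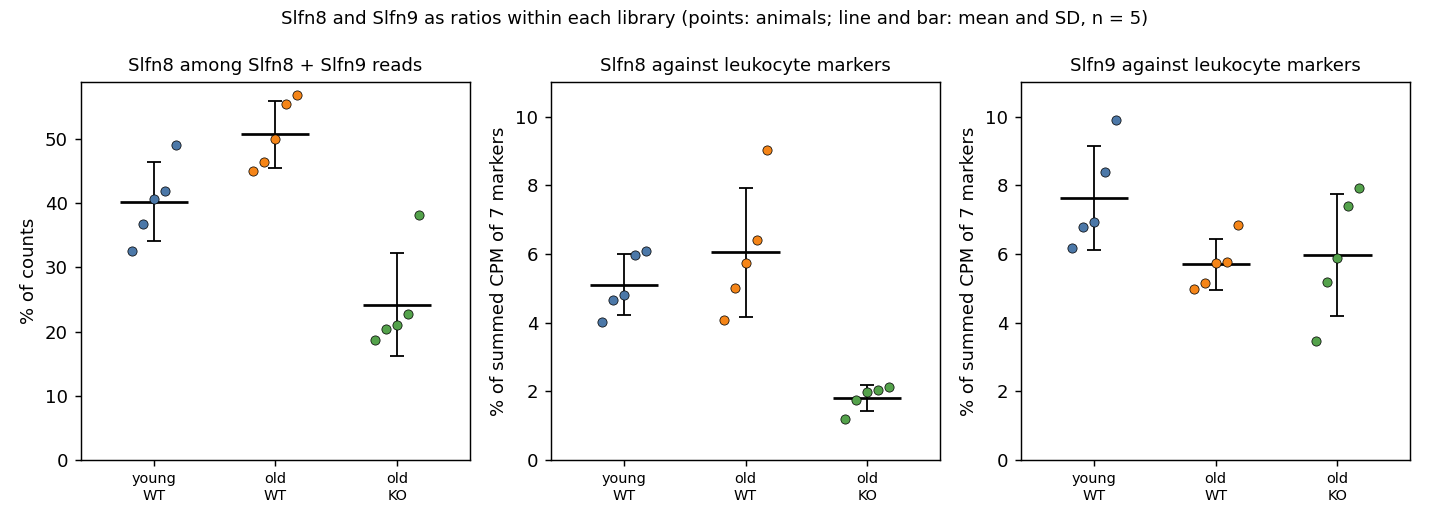
Slfn8 and Slfn9 as ratios within each library. Left, Slfn8 as a percentage of the reads of Slfn8 and Slfn9; middle and right, each gene as a percentage of the summed CPM of 7 leukocyte genes; points are animals, lines and bars mean and SD (n = 5). Slfn8 in old KO lies below old WT in the first 2 panels (at most 38.2% against at least 45.0%, and at most 2.14% against at least 4.06%), and Slfn9 overlaps between the old groups.

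The other marker lists were read in the same way. Between genotypes 0 genes passed in edgeR, and 0 with DESeq2 or voom, in the lists of monocytes and neutrophils (6 of 9 genes tested, median log2 fold change -0.43), T and NK cells (14 of 15, -0.67), B and plasma cells (8 of 8, -0.41), dendritic cells (6 of 6, -0.24), platelets (3 of 5, -0.26), endothelial cells (6 of 6, -0.10) and hepatocytes (6 of 6, 0.26). At an unadjusted edgeR p under 0.05, 1 gene was lower in the list of monocytes and neutrophils, 3 in that of T and NK cells, 2 in that of B and plasma cells, 1 in that of dendritic cells and 0 in the others. The summed T and NK cell markers were 6.20 to 13.98 CPM in young WT, 9.53 to 21.1 CPM in old WT and 5.53 to 14.1 CPM in old KO. Those of B and plasma cells were 4.67 to 8.80 CPM, 9.54 to 45.8 CPM and 14.9 to 74.9 CPM, the highest of them in old KO.

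With age, which was not the contrast the family was chosen by, Slfn8 was the only member that passed the test. Its log2 fold change of old WT against young WT was 0.79 ± 0.23 (SE), a mean 1.72-fold higher, with an adjusted p of 0.0245 in edgeR's quasi-likelihood test. Of all genes tested, 18.8% passed in this contrast and 9.92% passed as higher, so 1 of 6 members is near the background. The old WT libraries are the same that set the value of Slfn8 between genotypes, and their high level is thus not independent of that choice. Among the marker lists, 3 of 7 leukocyte and 4 of 14 T and NK cell genes were also called higher in old WT. So were 3 of 8 B and plasma cell and 2 of 6 monocyte and neutrophil genes. Of 13 macrophage markers, 11 had an estimate above 0 (median log2 fold change 0.41), and the 1 that was called, Cd163, was lower (-1.86). In the other lists 1 dendritic cell gene was called higher and 1 lower, 1 platelet gene higher, and 2 endothelial genes and 1 hepatocyte gene lower. The part of these markers in the value of Slfn8 was not tested. The call of Slfn8 was lost without young WT 1 (adjusted p = 0.0654), young WT 2 (0.0566), old WT 1 (0.0578) or old WT 5 (0.0636) in the same edgeR test.

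Slfn4 had a log2 fold change with age of 0.79 ± 0.32 (SE, adjusted p = 0.0961 in edgeR), Slfn1 of 0.73 ± 0.43 (0.256) and Slfn2 of 0.59 ± 0.26 (0.123). Without young WT 6, the library with the highest Slfn2, the value of Slfn2 was 0.88 and its adjusted p in edgeR 0.0121. For Slfn9 the change was 0.21 ± 0.16 (SE, adjusted p = 0.378) and for Slfn5 it was -0.19 ± 0.25 (0.646). Of the 6 members, 5 had an estimate above 0, which 51.2% of all genes had, and their median was 0.66 against 0.01 for all genes tested. Slfn3, outside the fit, differed by -0.02 in mean log2(CPM + 0.1) between old and young WT (exact permutation test, two-sided, p = 0.968).

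The levels of old KO were also set against young WT, a comparison that shares the old KO libraries with the contrast used for the choice and differs in both age and genotype. The low old KO values of Slfn8 are those that set the choice, so the p-values below are not independent of it. They and the count of calls are a description, and no support is drawn from them. Slfn8 was lower by a log2 fold change of -1.73 ± 0.26 (SE, adjusted p = 0.000442 in edgeR), with no overlap. Slfn9 changed by -0.59 ± 0.17 (adjusted p = 0.0174) and Slfn5 by -0.86 ± 0.26 (0.0269). These 3 of 6 members compare with 23.3% of all genes that passed in either direction and 11.3% that were lower. The groups did not overlap for 1 member, Slfn8, and for 13.9% of all genes (6.56% with old KO lower). The call of Slfn5 was lost without young WT 3 (adjusted p in edgeR 0.0596), young WT 4 (0.0601), old KO 4 (0.0674), old KO 5 (0.0576) or old KO 6 (0.0586). Slfn1 (-0.14 ± 0.47, adjusted p = 0.853), Slfn2 (-0.07 ± 0.27, 0.881) and Slfn4 (-0.32 ± 0.36, 0.545) did not pass. All 6 estimates were below 0, as were 50.6% of all genes, and the sign of Slfn1 and Slfn2 turned when some single libraries were left out.

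Interferon receptors, the kinases and transcription factors behind them and their target genes formed the wider pathway. Of 13 genes of receptors and signalling, 3 rose with age (median log2 fold change 0.19), where 9.92% of all genes rose. They included Irf7, a transcription factor of the interferon response (1.10, adjusted p = 0.00121 in edgeR), and Tyk2, a receptor kinase (0.52, 0.00255). Between genotypes 0 of these 13 passed in edgeR (median -0.07), 0 with voom and 1 with DESeq2, while at an unadjusted edgeR p under 0.05 1 was higher and 2 were lower, and the largest estimates were those of Irf7 (-0.83, adjusted p = 0.053) and Ifngr2 (-0.38, 0.146). Against young WT, 4 of 13 were called higher in old KO and 0 lower (median -0.04). Irf1 was at 0.53 (adjusted p = 0.0183 in edgeR) and Tyk2 at 0.50 (0.00204). Of all 14258 genes tested, 3319 (23.3%) were called in either direction. Of these, 1615 (11.3% of all genes) were lower and the rest were higher.

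Of 30 interferon target genes, 6 rose with age, with a median of 0.42, against 9.92% of all genes called higher. The largest estimates were those of Zbp1, a sensor of nucleic acids (1.22, adjusted p = 0.0246 in edgeR), and Gbp2, a guanylate-binding protein (0.92, 0.176). Between genotypes all 30 had an estimate below 0 (median -0.54), as did 49.8% of all genes. In edgeR 1 passed, where 0.421% of all genes were called lower. It was Oas3, an oligoadenylate synthetase (-1.42, adjusted p = 0.0459), followed in size by Oas1a (-1.26, 0.0619). DESeq2 called 4 of the 30 and voom 0. At an unadjusted edgeR p under 0.05, 15 were lower and 0 higher. The share of all genes at that unadjusted p is not given here. In old KO against young WT 2 of 30 were lower (median -0.12), where 11.3% of all genes were, namely Oas3 (-0.98, 0.0296) and Adar, an RNA-editing enzyme (-0.35, 0.0372), which is named after its values were seen. Mx1, a dynamin-like antiviral protein with the next largest estimate after Oas3, was at -0.77 and did not pass (0.0694). Over both lists the number that passed with age was 9, and it was 2 without young WT 1, young WT 2 or old WT 5, 4 without old WT 1 or old WT 10 and 5 without young WT 3. Between genotypes the 1 call was lost without old WT 1, 4, 5 or 10, old KO 4, 5 or 6, or young WT 3 or 4, and the count was 3 without young WT 2 and 2 without young WT 6. In old KO against young WT the 6 calls became 3 without young WT 4 or without old KO 4. The interferon lists, like the members, were written with earlier results of these data known.

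The neighbourhood of the cluster was examined because all members sit together near the deleted gene. Within 0.5 Mb of its ends lay 50 other genes, of which 19 were tested, with a median log2 fold change between genotypes of -0.08. Of these, 1 rose and 1 fell, against the 0.533% of all genes given above. The largest estimates were those of 3 chemokine genes between the cluster and Rps6kb1. Ccl6 was lower in old KO (-1.38 ± 0.23, SE), as was the estimate of Ccl5 (-1.28 ± 0.37), and Ccl9 was higher (1.23 ± 0.14), at 124 against 52.7 CPM. Ccl6 and Ccl9 passed edgeR's test and Ccl5 did not (adjusted p = 0.144), although Ccl5 passed with DESeq2 (0.031). Ccl9 passed whichever library was left out, whereas Ccl6 did not pass without old WT 1 (adjusted p in edgeR 0.0515), old WT 4 (0.0565), old KO 4 (0.059) or old KO 6 (0.0515). Next in size, and named after their values were seen, were Gm11428 (-1.14, adjusted p in edgeR 0.06) and Unc45b (-1.10, 0.051). The midpoint of Unc45b lies 24 kb from the start of Slfn5. Its nearer end is at 82756905, and Slfn5 starts at 82764851. Of the 19 tested neighbours, 3 were lower and 1 higher in old KO with no overlap of the old groups, which 3.2% of all genes showed in either direction.

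**Figure D4:**
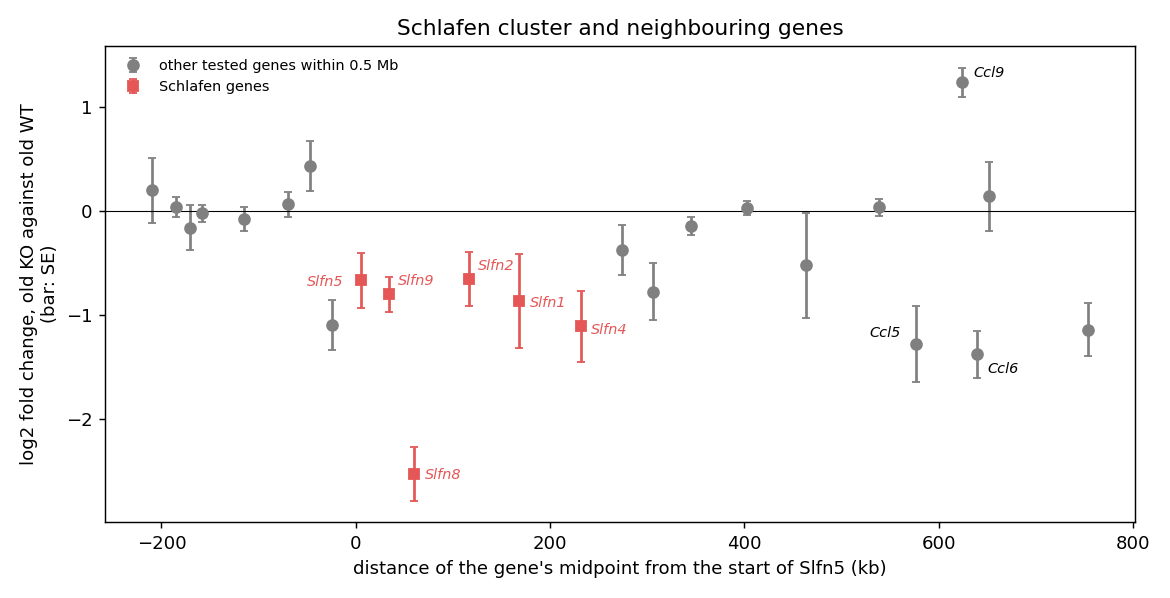
Log2 fold changes of old KO against old WT along the chromosome around the Schlafen cluster. The horizontal axis gives the distance of each gene's midpoint from the start of Slfn5 in kb, the vertical axis the fitted value with its SE as a bar; squares are the 6 tested Schlafen genes and circles the other 19 tested genes within 0.5 Mb. Schlafen genes lie between -2.53 and -0.66, and the other genes between -1.38 and 1.23.

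Genes that varied most like each member were sought within the groups, as Pearson's r of the deviations of log2 CPM from the group mean over 15 libraries and 12125 genes with a mean of at least 1 CPM. These points share library and depth, and the values are a description. Nearest to Slfn8 were Serpina3f, a serine protease inhibitor (r = 0.95, Spearman's rho = 0.95, and 0.90 without the 2 farthest libraries), Vps45 (0.91) and Gfm2 (0.86). Slfn9, despite its sequence, was not close to Slfn8 (r = 0.22, rho = 0.20), and its nearest genes were Map4k3 (0.88), Lnp (0.86) and Bclaf1 (0.84). Low counts of Slfn8 in old KO (12 to 26 reads per library) and reads shared by the pair limit the r of Slfn8 with Slfn9. Among the tested members, r with Slfn8 was highest for Slfn2 (0.71, rho = 0.47, and 0.33 without the 2 farthest libraries) and lowest for Slfn9. Nearest to Slfn2 were Nlrp1b, an inflammasome sensor (0.94), Hdac9 (0.93) and Hk3 (0.92). Those of Slfn5 were Sema6d (0.92), Sft2d2 (0.91) and Il6st, the shared receptor of the interleukin-6 family (0.91). For Slfn1 they were Cep350 (0.88), Chac2 (0.87) and Hells (0.87), and for Slfn4 Zfp800 (0.88), Med23 (0.87) and Mical1 (0.85). At least 2 of the 3 stayed the nearest whichever library was left out for Slfn8 alone. Ranked by Spearman's rho instead, 2 of the 3 were kept for Slfn4, 1 each for Slfn2, Slfn5, Slfn8 and Slfn9 and 0 for Slfn1.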

How the data were processed

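Stranded mRNA libraries of whole liver were read as 50-base single ends. The deposited values are raw counts per gene, which the authors made by alignment to mm9 with TopHat2 (2.0.11 in the submitters' processing notes, which also name CASAVA and DESeq2 1.18.1) and counting with HTSeq; the annotation, strand setting and treatment of reads with several matches are not given in the sources used here. CPM were computed here from these counts with TMM scaling.

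All 15 libraries, grouped by label, were fitted together with edgeR 4.0.16 (R 4.3.3) by its quasi-likelihood test, after filterByExpr, with Benjamini-Hochberg adjustment over 14258 genes and a threshold of 0.05. Members under the filter were compared with age by an exact permutation test of log2(CPM + 0.1). Total counts of 21801754 to 38065359 gave Slfn8 shares of the pair exact 95% intervals, which are not symmetric, with a mean reach to either side of at most 12.1 percentage points. The p-values of edgeR judge a difference between groups of 5 animals against a spread estimated from all 15 libraries. That of the permutation test rests on the young and old WT animals alone.

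Members and gene lists were chosen with earlier results of these data known. The named genes were all members, their relatives, Rps6kb1, the 2 genes of each interferon list with the largest absolute log2 fold change in each contrast, the 3 such neighbours between genotypes and the 3 genes most like each member. Gene positions came from GENCODE M1 (NCBIM37) and promoters from RefSeq. Alternatives were DESeq2 size factors, upper quartile scaling, no filter, at least 10 counts in every library, DESeq2 1.42.0, limma 3.58.1 voom, libraries of the contrast alone, a replicate block, another pseudocount, Spearman's rho, each library left out and, chosen after seeing the data, near-identical members summed. Same-numbered animals did not deviate together.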

Additional observations from a re-analysis of the deposited data

How the results depend on the processing

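As a description, the log2 fold change of Slfn8 between genotypes ran from -2.73 to -2.45 over the 15 fits without 1 library, and was -1.42 when summed with Slfn9 and Slfn10-ps. The number of members called with age was 1, and 2 with limma voom, which added Slfn2 (adjusted p = 0.0344), and 0 to 2 without single libraries. Between genotypes the 2 members called became 1 with voom and 1 to 2 without single libraries, and in old KO against young WT the 3 stayed 2 to 3. Of 43 interferon genes, the 9 called with age became 2 to 12 without single libraries. The 1 called between genotypes became 2 with upper quartile scaling, 2 with no filter, 5 with DESeq2, 0 with voom, 3 with the libraries of the contrast alone and 0 to 3 without single libraries, and the 6 in old KO against young WT became 3 to 9.

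Replicate numbers did not pair the animals (correlation of same-numbered deviations -0.15 to 0.08), so the block shares only a number. With the replicate block, the members called were 0 with age, 1 between genotypes and 1 in old KO against young WT, and the interferon genes called were 3 with age and 0 between genotypes; all genes called were 899 with age, against 2685, and 6 between genotypes, against 76, and Ccl6 lost its call (adjusted p = 0.279). The estimate of Slfn5 with age turned to 0.17 under the block, and those of Slfn1 and Slfn2 in old KO against young WT to 0.11 and 0.0325 under it and to 0.17 and 0.12 with voom. Without single libraries these last 2 ran from -0.43 to 0.0865 and from -0.23 to 0.22. All genes called between genotypes were 305 with DESeq2, 23 with voom and 9 to 108 without single libraries, and 1748 to 3284 with age. Summing the near-identical members gave Slfn8 and Slfn9 together a call with age (0.48, adjusted p = 0.0391). The cause of these moves was not tested. With at least 10 counts in every library Slfn1 and Slfn4 were not tested, and low counts limit both, and Slfn3 throughout.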
